A study of Homo sapiens with 30 samples.

Results

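The 10 genes described here encode enzymes and core subunits of the complexes that methylate lysine 4 of histone H3 (H3K4): KMT2A, KMT2B, KMT2C, KMT2D, SETD1A, SETD1B, WDR5, RBBP5, ASH2L and CXXC1. They were taken from a fixed list of symbols, and every peak inside one of them or within 2 kb of it was used, without regard to its values. That gave 22 of 21268 H3K4me3 peaks and 54 of 63580 H3K27ac peaks, at 10 of the 59788 genes of the annotation. The study measured chromatin by ChIP-seq in OCI-Ly1, an established human diffuse large B-cell lymphoma line, and its title places it in the fidelity of heterochromatin in lymphoma. The groups were cells given DMSO, the vehicle, alone and cells given 150 nM or 500 nM of JIB-04, which inhibits histone demethylases of the Jumonji family, and no other agent or genotype separated the groups. Each mark had 2 libraries per group, 12 in all, of the 30 samples in the series, and the other 18 (input, H3K9me2 and H3K9me3) were not analysed here. The labels used here give neither a treatment time nor whether 2 libraries came from separate cultures, so p-values measure the spread between libraries only.

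H3K4me3 marks the start regions of active and poised genes, and H3K27ac marks active promoters and enhancers. The mark on H3K4 is written by a catalytic SET-domain subunit held in a core of WDR5, RBBP5, ASH2L and DPY30, without which the KMT2 and SETD1 enzymes are weakly active. SETD1A and SETD1B, which are brought to CpG-rich DNA by CXXC1, lay down much of the promoter trimethylation, KMT2A and KMT2B act at selected promoters together with menin, and KMT2C and KMT2D chiefly monomethylate enhancers. The KDM5 enzymes, which belong to the Jumonji family, remove trimethylation of H3K4, and the KDM1 enzymes remove its mono- and dimethylation. KMT2D is among the genes most often mutated in germinal-centre lymphomas.

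The reads inside peaks numbered 9686420 to 12327122 per H3K4me3 library and 4360660 to 5410292 per H3K27ac library. Of these, 16029 to 20968 and 5106 to 6499 lay in the peaks of the 10 genes. The 2 H3K4me3 libraries at 150 nM differed by less than sampling noise (chi-square per degree of freedom 0.929), but so did DMSO replicate 1 and 150 nM replicate 1 (0.952), and they were kept as 2 samples. Among H3K27ac libraries the 150 nM pair differed most within a group (2.31, against 1.31 for DMSO and 1.24 for 500 nM). On 5 unplaced contigs known from earlier results, H3K27ac reads were 71.5 and 45.9 per 1000000 reads in peaks in DMSO replicate 2 and 150 nM replicate 2 and 322 to 446 in the other libraries. All 6 B-cell markers checked had an H3K4me3 peak (55.1 to 498 CPM in DMSO). CD3D and CD3G, which share their peaks, stood at 27.2 CPM and CD14 at 10.7 CPM, and CD3E, CSF1R and LYZ had none. CPM here is a count per 1000000 reads, with the TMM-scaled sum of a library's reads over all tested peaks as the total.

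The listed starts of these genes lay under H3K4me3 peaks and differed widely in CpG content. The RefSeq promoters used here (GRCh38.p14) matched 8 of the 10 genes, all but SETD1B and ASH2L. They gave 11 windows of 300 bases, and all 11 windows lay wholly inside an H3K4me3 peak. KMT2C had 56 CpG dinucleotides in its window, KMT2B 48, KMT2A 36, SETD1A 30, CXXC1 28, KMT2D 27 and RBBP5 18, against a median of 14 over 35116 promoter windows. The 4 starts listed for WDR5 had 6, 16, 31 and 45. At least as many CpG dinucleotides as in the KMT2C window were found in 0.276% of all windows, and at least as many as in the RBBP5 window in 44.5%. The 250 bases before the start are shown for KMT2C, KMT2D and RBBP5, the genes whose most read-rich peak fell at 500 nM, and for KMT2A, whose peak was nearly level. CpG dinucleotides, the letters that the CXXC domains of CXXC1, KMT2A and KMT2B bind when unmethylated, are in capitals. The regions are chr7:152436004-152436253 (minus strand), chr12:49060795-49061044 (minus strand), chr1:205121979-205122228 (minus strand) and chr11:118436242-118436491 (plus strand).
KMT2C: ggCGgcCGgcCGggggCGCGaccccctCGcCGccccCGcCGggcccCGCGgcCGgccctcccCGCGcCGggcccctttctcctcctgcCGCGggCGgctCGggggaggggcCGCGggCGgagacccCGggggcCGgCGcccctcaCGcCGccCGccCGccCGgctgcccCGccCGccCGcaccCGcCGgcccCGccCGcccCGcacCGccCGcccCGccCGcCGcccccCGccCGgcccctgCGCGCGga
KMT2D: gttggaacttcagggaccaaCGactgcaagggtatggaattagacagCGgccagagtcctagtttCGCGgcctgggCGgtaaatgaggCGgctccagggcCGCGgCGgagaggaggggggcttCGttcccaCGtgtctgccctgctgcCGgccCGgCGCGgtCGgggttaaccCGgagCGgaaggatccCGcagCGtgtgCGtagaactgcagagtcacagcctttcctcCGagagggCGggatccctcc
RBBP5: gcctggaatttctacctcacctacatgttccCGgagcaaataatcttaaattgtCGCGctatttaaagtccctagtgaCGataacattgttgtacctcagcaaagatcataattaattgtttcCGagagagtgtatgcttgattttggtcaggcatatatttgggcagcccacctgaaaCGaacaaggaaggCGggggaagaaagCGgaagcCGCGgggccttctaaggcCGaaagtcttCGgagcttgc
KMT2A: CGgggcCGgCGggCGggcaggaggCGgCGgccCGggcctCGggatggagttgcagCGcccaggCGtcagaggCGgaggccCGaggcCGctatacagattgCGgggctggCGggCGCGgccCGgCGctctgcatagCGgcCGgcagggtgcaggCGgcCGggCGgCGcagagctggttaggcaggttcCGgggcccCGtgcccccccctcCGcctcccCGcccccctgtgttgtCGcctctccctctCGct

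The KMT2C stretch held 48 CpG dinucleotides and was almost wholly G and C, that of KMT2A held 31, that of KMT2D 23 and that of RBBP5 12. The letters GGGCGG, a GC box of the SP and KLF factors, occurred on either strand in the 300-base windows of 6 of 8 genes, 15 times for KMT2C, and in 45.0% of all promoter windows. AAGATGGCG, a YY1 motif, was in the windows of CXXC1 and KMT2B and in 1.75% of all windows. CCGGAAG, an ETS motif, was in 1 window of WDR5 and in 10.3% of all windows. Both strands were searched for each motif, all 3 of which contain a CpG dinucleotide, and a match is a description of letters and not of a bound factor.

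For each gene and mark, the peak with the highest mean CPM over the 6 libraries is called its lead peak. Compared per length in DMSO, H3K4me3 was densest at the WDR5 lead peak, with 50.0 and 51.9 CPM per kb in the 2 libraries. KMT2D (47.7 and 47.6) and ASH2L (46.6 and 48.2) came next and overlapped each other. CXXC1 (44.0 and 45.2) and SETD1A (40.8 and 43.0) followed, then KMT2C (36.5 and 36.8) and KMT2B (36.5 in both), which could not be ordered. RBBP5 (33.0 and 34.9), SETD1B (25.8 and 25.4) and KMT2A (22.0 and 23.1) were lowest. The median over 10142 tested peaks that cover a promoter window was 31.9 CPM per kb.

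The lengths of the H3K4me3 lead peaks ran from 2341 to 8814 bp, with a median of 3007.5 bp. The median was 2168 bp for promoter-covering H3K4me3 peaks. It was 3003 bp in the top abundance class, defined below, which holds 9 of the 10 lead peaks. Beside peaks of like abundance, the lead peaks were thus not long as a set. The longest belonged to SETD1B, on chromosome 12 from 121798302 to 121807115, longer than 99.7% of promoter-covering H3K4me3 peaks. It began inside the gene, 8.15 kb from its lower-coordinate end, and overlapped the long noncoding RNA gene LINC01089. No start was listed for SETD1B, so whether this peak covers one is not known here. Of the 22 H3K4me3 peaks, 10 overlapped another annotated gene, as did 12 of the 54 H3K27ac peaks, and reads of such neighbours cannot be told apart. H3K27ac had more peaks than H3K4me3 at these genes, as it did in the whole series (63580 against 21268). Of the 54, 27 were at KMT2C, a gene of 301079 bp, and 8 at SETD1B. Whether a peak lay in an exon, an intron or an untranslated region was not analysed here.

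**Figure D1:**
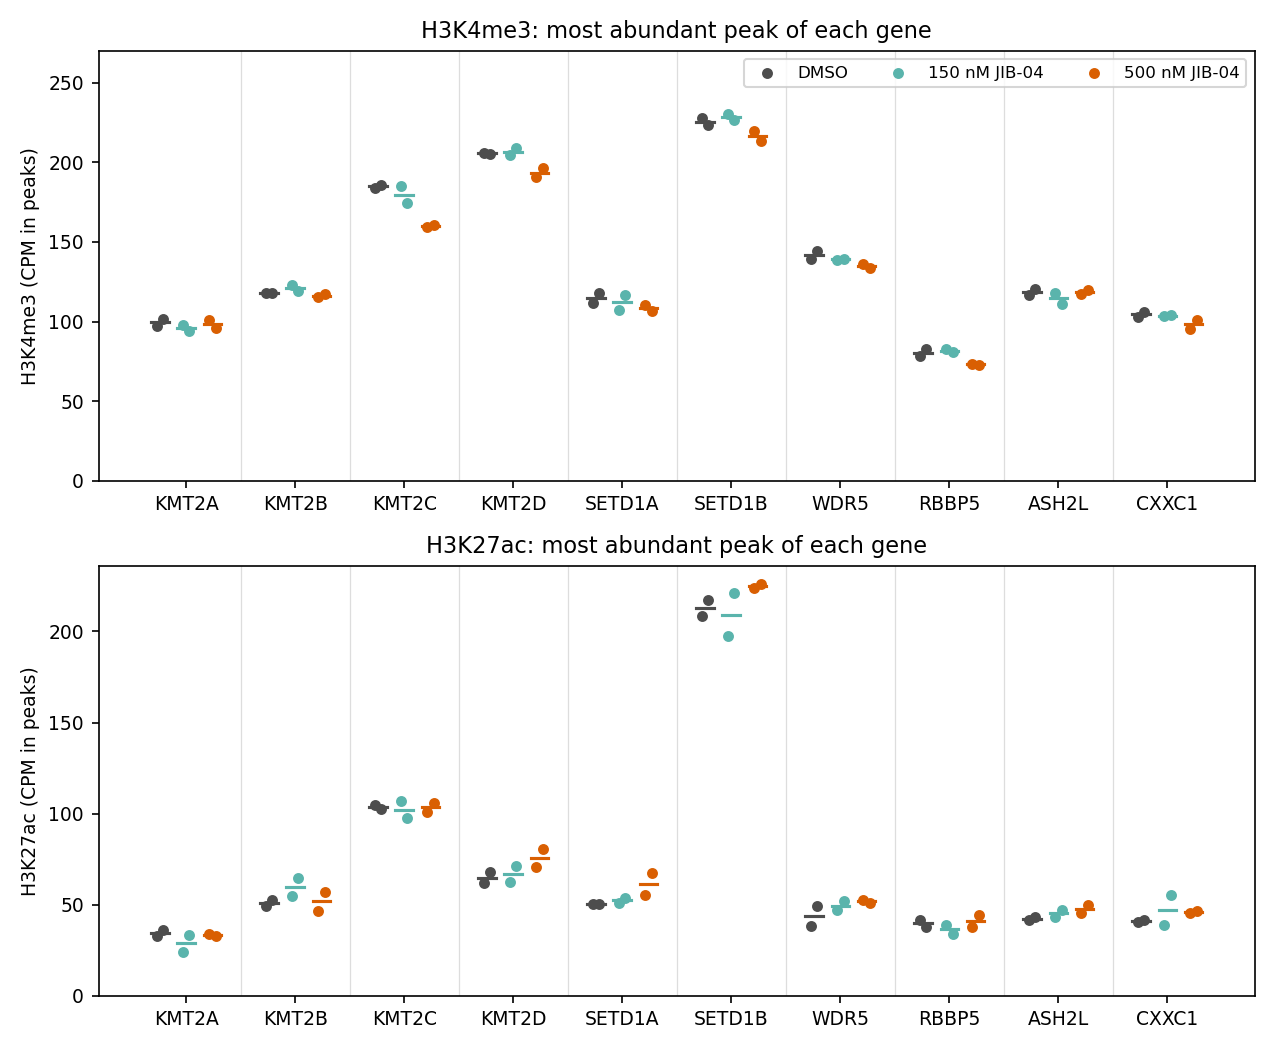
Level of each gene's lead peak in CPM for H3K4me3 (upper panel) and H3K27ac (lower panel). Each point is 1 library and each bar the mean of 2. The orange H3K4me3 points of KMT2C at 500 nM (159.5 and 160.4) lie below its DMSO points (184 and 186). Its H3K27ac points overlap, but they belong to a peak at another place, 274 kb from the start.

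At 500 nM JIB-04, H3K4me3 fell at part of these loci. Of 20 member peaks that passed the filter on low counts, 6 were lower than in DMSO and 0 were higher at an adjusted p under 0.05 (edgeR's quasi-likelihood test, Benjamini-Hochberg over all tested peaks). The 6 lay at 5 genes: KMT2C, KMT2D, SETD1B with 2 peaks, RBBP5 and CXXC1. Over all 20402 tested H3K4me3 peaks, 18.7% were lower and 20.7% higher, and 39.4% were called in either direction. The direction depended on abundance. In the top abundance class, the highest 1 of 5 equal groups of tested peaks by mean CPM, which holds 10 of the 20, 34.1% were lower and 4.83% higher, and 3 of the 10 member peaks there were lower. In that class the share of member peaks called was thus near the background. The other falls among the 6, at RBBP5 and the 2 SETD1B peaks, lay in lower abundance classes. For those classes no background share is given here. The 2 peaks that did not pass the filter were small ones inside SETD1B. Without 500 nM replicate 1, edgeR called 2 of the 6 falls, KMT2C and the CXXC1 peak, and called 2 small peaks higher. These were the SETD1B peak from 121814678 to 121814930, left out of the fit to all 6 libraries by the filter, and the KMT2C peak from 152366837 to 152367164. Their log2 fold changes without that library were 2.72 and 1.08. The SETD1B peak held 2 and 3 reads in DMSO and 2 and 15 at 500 nM. The KMT2C peak held 14 and 13 reads in DMSO and 20 and 25 at 500 nM.

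Among the 10 lead peaks, 3 were lower and 7 did not pass the test. Their median log2 fold change was −0.073, against −0.059 in the top abundance class and −0.0063 over all tested peaks. Both 500 nM libraries lay below both DMSO libraries at 8 of 10 lead peaks, which was so for 34.3% of all tested peaks and 55.4% of the top abundance class. No lead peak had both above. With loess offsets, which take out the dependence on abundance, the median of the lead peaks was −0.0084 and that of the top abundance class 0.0038. Under these offsets KMT2C was the 1 lead peak called, at −0.14 (edgeR adjusted p = 7.43e-04).

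**Figure D2:**
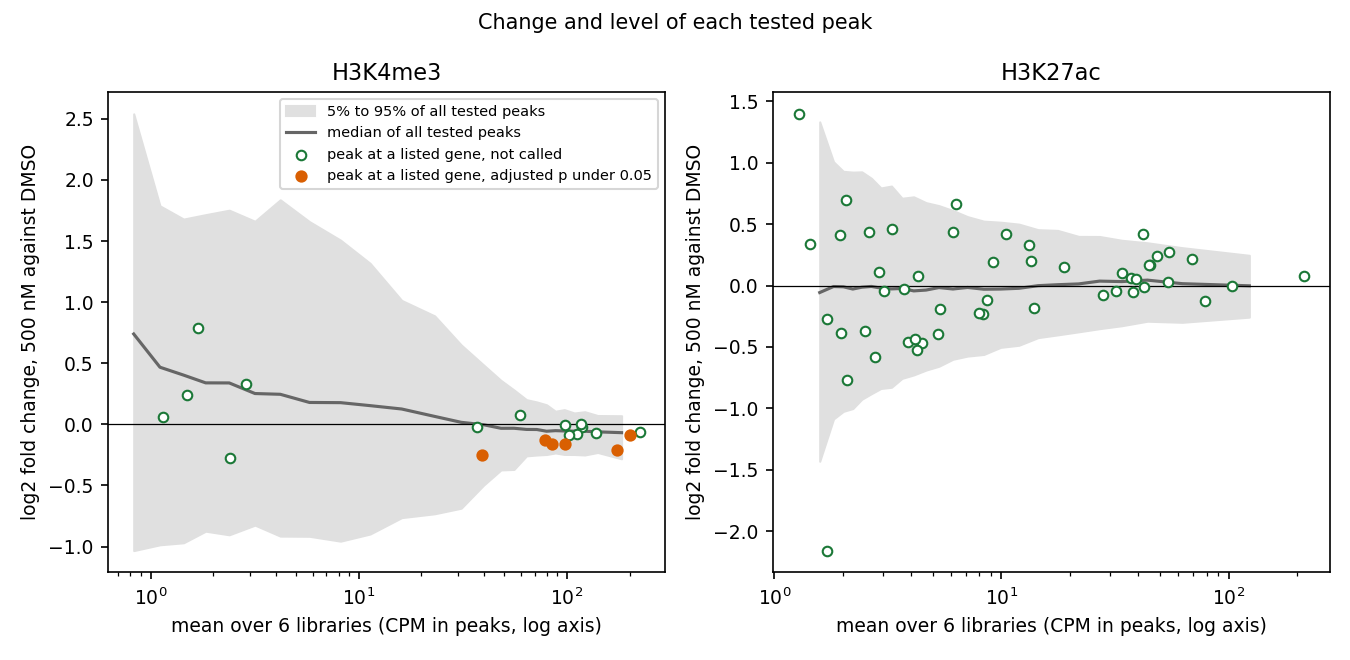
Log2 fold change at 500 nM against DMSO (vertical axis) and mean CPM (horizontal log axis) of each tested peak at the 10 genes, over the median (line) and the 5% to 95% range (grey) of all tested peaks of the mark. The 6 filled H3K4me3 points are the peaks with an adjusted p under 0.05, all below 0; no H3K27ac point is filled.

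KMT2C encodes a catalytic subunit that monomethylates H3K4, mainly at enhancers, and its start showed the clearest change. The lead peak, on chromosome 7 from 152432349 to 152437389, covered the gene's start and part of the pseudogene FABP5P3. It carried 184 and 186 CPM in DMSO, 185 and 174 CPM at 150 nM, and 159.5 and 160.4 CPM at 500 nM. Both 500 nM libraries were lower than the other 4, and the 150 nM libraries overlapped those of DMSO. The level fell by 13.4% at 500 nM, a log2 fold change of −0.21 with a standard error of 0.034 (95% interval −0.28 to −0.14, edgeR adjusted p = 1.45e-06). In the top abundance class, 7.67% of peaks had a lower value. The 2 other H3K4me3 peaks of KMT2C, 341 and 328 bp long and deep inside the gene, held 0.448 to 2.55 CPM per library and did not pass the test with all 6 libraries. Copies of part of KMT2C are known elsewhere in the genome, and how reads with several placements were treated is not given in the sources used here.

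KMT2D, the close relative of KMT2C, had the second most read-rich lead peak, on chromosome 12 from 49057396 to 49061707 over its start. Its levels were 206 and 205 CPM in DMSO, 204 and 209 CPM at 150 nM, and 190.4 and 197 CPM at 500 nM. Both libraries at 500 nM lay below the other 4, and the fall of 5.99% was small beside that of KMT2C (log2 fold change −0.089, standard error 0.032, edgeR adjusted p = 0.0221). This call was lost with scaling by the total count in peaks (0.154), with loess offsets (0.780), with a mean count of at least 50 (0.103), in the fit to the 4 libraries of DMSO and 500 nM (0.0514), without DMSO replicate 1 (0.0681), without 500 nM replicate 1 (0.195) and in the DESeq2 Wald test (0.255). Another peak, at the other end of the gene, shared with PRKAG1 and DDN-AS1, had a log2 fold change of 0.075 (edgeR adjusted p = 0.293).

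KMT2A and KMT2B, whose products trimethylate H3K4 at selected promoters, were nearly level. The KMT2A lead peak, on chromosome 11 from 118434471 to 118438884, carried 97.0 and 102 CPM in DMSO, 98.1 and 94.3 CPM at 150 nM, and 101 and 95.7 CPM at 500 nM. All 3 groups overlapped. At 500 nM the log2 fold change of −0.0090 had a 95% interval from −0.096 to 0.078. The KMT2B lead peak, on chromosome 19 from 35716178 to 35719406, overlaps ZBTB32 and held 118 CPM in both DMSO libraries, 123 and 119 CPM at 150 nM, and 115 and 117 CPM at 500 nM. At 500 nM both values were marginally below those of DMSO, and the log2 fold change of −0.022 had an interval from −0.10 to 0.057.

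SETD1A and SETD1B are the catalytic subunits of the complexes that bind CXXC1. The SETD1A lead peak, on chromosome 16 from 30956443 to 30959183, carried 112 and 118 CPM in DMSO, 107 and 117 CPM at 150 nM, and 110.5 and 106 CPM at 500 nM. Both 500 nM libraries lay below DMSO, 1 of them between the 150 nM libraries and the other just below these, and the log2 fold change of −0.077 did not pass the test (edgeR adjusted p = 0.147).

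SETD1B had 7 H3K4me3 peaks in a gene of 42502 bp, and those that fell were beside its broad lead peak. The lead peak held 227 and 224 CPM in DMSO, 230.2 and 227 CPM at 150 nM, and 219 and 213 CPM at 500 nM. Its log2 fold change of −0.059 missed the threshold against DMSO (edgeR adjusted p = 0.123), although the 500 nM libraries were below the other 4. The peak on chromosome 12 from 121792011 to 121794764, 1.86 kb inside the gene and also over RHOF, went from 86.6 and 86.4 CPM in DMSO to 76.4 and 78.3 CPM at 500 nM. It fell by 10.6% (log2 fold change −0.16, standard error 0.046, edgeR adjusted p = 0.00337). The peak from 121811439 to 121813277, 21.3 kb inside the gene with no other gene over it, went from 41.2 and 39.3 CPM to 33.1 and 34.8 CPM. It fell by 16.0% (log2 fold change −0.25, standard error 0.068, edgeR adjusted p = 0.00220), the largest fall among the 6 called peaks. Both lay at or above their DMSO level at 150 nM (89.9 and 89.2 CPM, and 43.1 and 42.5 CPM). The first call was lost without 500 nM replicate 1 (0.0568) and with loess offsets (0.0570). The second was lost without 500 nM replicate 1 (0.0602) and without DMSO replicate 1 (0.0533), and DESeq2 called neither (0.151 and 0.135).

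**Figure D3:**
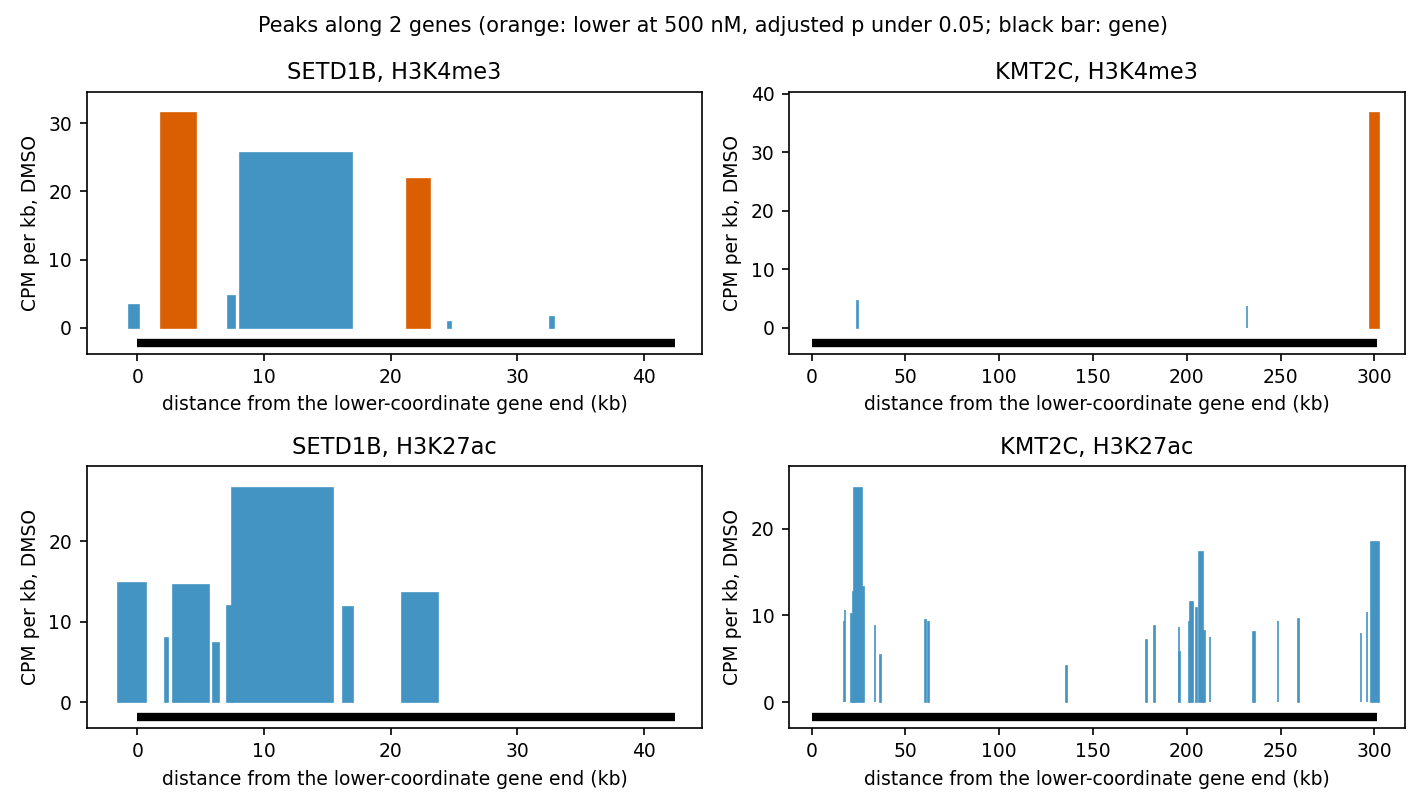
Peaks of H3K4me3 (upper row) and H3K27ac (lower row) along SETD1B (left) and KMT2C (right), as distance in kb from the gene's lower-coordinate end; bar width is peak length, height is CPM per kb in DMSO, and the black bar is the gene. The 2 orange SETD1B peaks flank the 8814 bp lead peak, and KMT2C has its only abundant H3K4me3 peak at its start but 27 H3K27ac peaks along the gene.

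The core subunits WDR5, RBBP5 and ASH2L are shared by all 6 enzymes, and only RBBP5 passed the test among them. The RBBP5 lead peak, on chromosome 1 from 205120825 to 205123193, carried 78.1 and 82.7 CPM in DMSO, 82.7 and 80.8 CPM at 150 nM, and 73.6 and 72.8 CPM at 500 nM. The 500 nM libraries were below the other 4. The level fell by 8.69% (log2 fold change −0.13, standard error 0.048, edgeR adjusted p = 0.0250). This call was lost with total-count scaling (0.116), loess offsets (0.186), a mean count of at least 50 (0.0712) and DESeq2 (0.289). It was also lost without DMSO replicate 2 (0.214), 500 nM replicate 1 (0.0760) or 500 nM replicate 2 (0.0860).

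WDR5, the subunit that anchors the enzymes to the core, had 1 H3K4me3 peak over all 4 of its listed starts and over WDR5-DT, on chromosome 9 from 134134831 to 134137616. Its levels were 139 and 144 CPM in DMSO, 139 CPM in both libraries at 150 nM, and 136 and 134 CPM at 500 nM. Those at 500 nM were the lowest, with a log2 fold change of −0.069 that did not pass the test (edgeR adjusted p = 0.134). ASH2L, which with RBBP5 stimulates the SET domain, had its peak on chromosome 8 from 38104289 to 38106789. It carried 116 and 121 CPM in DMSO, 118 and 111 CPM at 150 nM, and 117 and 119.8 CPM at 500 nM. The groups overlapped, and the log2 fold change was 0.00063 with an interval from −0.079 to 0.081.

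CXXC1 encodes the CpG-binding subunit of the SETD1 complexes. Its lead peak, over its start on chromosome 18 from 50286324 to 50288664, carried 103 and 106 CPM in DMSO, 104 CPM in both 150 nM libraries, and 95.3 and 101 CPM at 500 nM. The 500 nM libraries were lowest, but the log2 fold change of −0.091 did not pass the test (edgeR adjusted p = 0.0810). The other peak, from 50280303 to 50282342, lies just beyond the gene's other end and over MBD1, a methyl-CpG-binding protein gene. It went from 97.3 and 106 CPM in DMSO to 89.6 and 91.7 CPM at 500 nM, with 104 and 101 CPM at 150 nM. It fell by 10.4% (log2 fold change −0.16, standard error 0.044, edgeR adjusted p = 0.00308). The call was lost without DMSO replicate 2 (0.117), with loess offsets (0.0586) and with DESeq2 (0.129).

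**Figure D4:**
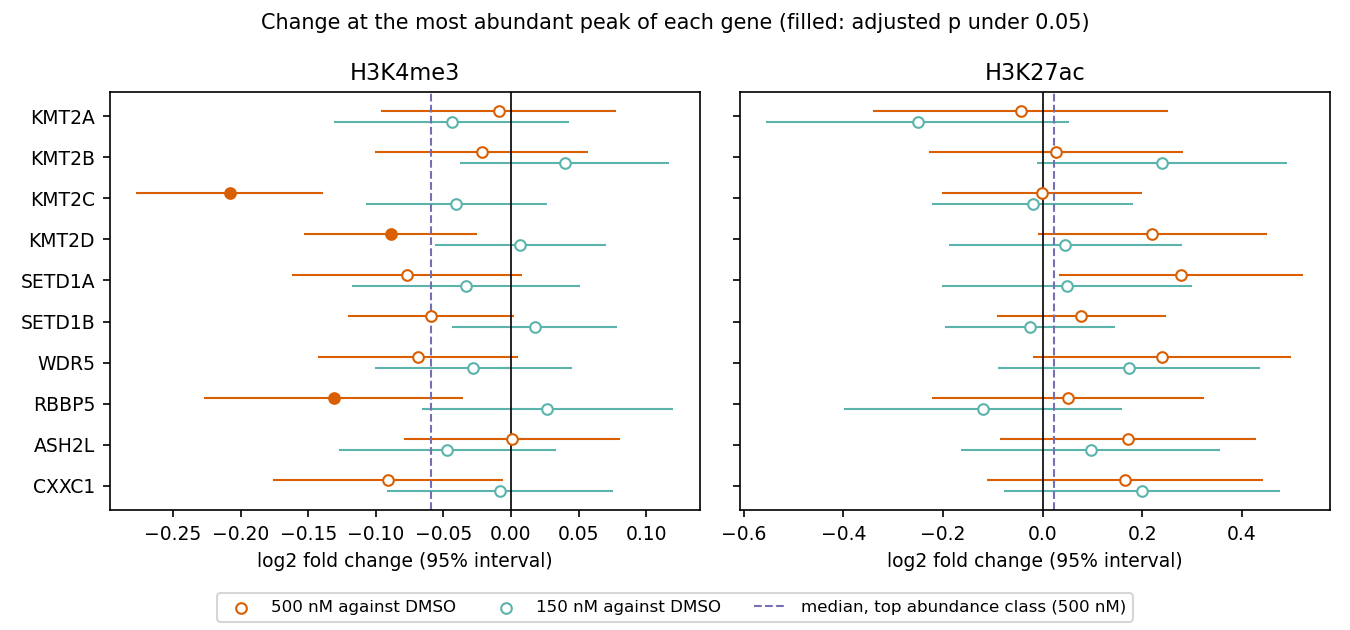
Log2 fold change with 95% interval of each gene's lead peak at 500 nM (orange) and 150 nM (teal) against DMSO, for H3K4me3 (left) and H3K27ac (right, wider scale). Filled points have an adjusted p under 0.05 (KMT2C, KMT2D and RBBP5 for H3K4me3 at 500 nM), and the dashed line is the 500 nM median of the top abundance class (−0.059 and 0.022).

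At 150 nM none of these peaks passed the test against DMSO. For H3K4me3, 0 of 20 tested member peaks were called and 0 had an unadjusted p under 0.05 with edgeR, against 0% called and 4.66% with such a p over all tested peaks, and DESeq2 also called 0. The log2 fold changes of the 10 lead peaks ran from −0.047 at ASH2L to 0.040 at KMT2B, with a median of −0.018. Setting 500 nM against 150 nM, 7 of 20 peaks were lower and 0 higher, against 18.6% lower over all tested peaks. In the top abundance class 4 of 10 member peaks were lower, against 32.8% of that class. Peaks were called higher in 2 alternatives of this comparison: that of ASH2L with loess offsets (0.10, edgeR adjusted p = 0.0324) and, without 150 nM replicate 2, the KMT2C peak from 152159158 to 152159498 (2.02, adjusted p = 0.0130). All 6 peaks lower than in DMSO were among the 7, and the seventh was the SETD1B lead peak (log2 fold change −0.077, edgeR adjusted p = 0.0423). The 2 comparisons share the 500 nM libraries.

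H3K27ac passed the test at none of these loci. Of 50 tested peaks, edgeR called 0 for 500 nM against DMSO, 0 for 150 nM against DMSO and 0 for 500 nM against 150 nM, where 0.923%, 0.00185% and 1.27% of all 54037 tested peaks were called. DESeq2 called 0 in each as well. At an unadjusted p under 0.05 there were 4, 1 and 5 of the 50, against 11.5%, 3.94% and 10.2% of all tested peaks. At 500 nM the values of 8 of 10 lead peaks were above those in DMSO, and the median of their log2 fold changes was 0.12. That median was 0.022 in the top abundance class and 0.079 among those of that class that cover a promoter window. At 6 of 10 lead peaks both 500 nM libraries were above both DMSO libraries. This was so for 22.4% of all tested peaks, 32.3% of the top abundance class and 42.1% of its promoter-covering peaks. Of the 10 lead peaks, 5 covered a listed start of their own gene, and SETD1B and ASH2L had none listed.

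The member peak with the smallest p lay at the end of KMT2D away from its start, on chromosome 12 from 49017862 to 49020161, where PRKAG1 and DDN-AS1 also lie. It carried 37.7 and 38.1 CPM in DMSO, 35.3 and 40.3 CPM at 150 nM, and 50.7 CPM in both 500 nM libraries. The 500 nM libraries were above the other 4, with a log2 fold change of 0.42 (standard error 0.13, edgeR adjusted p = 0.120). Without either 150 nM library it passed the test (0.00670 without replicate 1, 0.00908 without replicate 2), as it did in a fit to the 4 libraries of DMSO and 500 nM (0.00724). A term that sets DMSO replicate 2 and 150 nM replicate 2 apart gave 0.0236. The KMT2D lead peak over its start held 61.6 and 68.0 CPM in DMSO, 62.3 and 71.4 CPM at 150 nM, and 70.6 and 80.6 CPM at 500 nM. Its groups of 500 nM and DMSO did not overlap, but the log2 fold change of 0.22 had an adjusted p of 0.464 with edgeR.

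For KMT2C the most abundant H3K27ac was not at the start. The lead peak, on chromosome 7 from 152157649 to 152161828, lay inside the gene, 274 kb from its start. It held 105 and 102 CPM in DMSO, 107 and 97.5 CPM at 150 nM, and 101 and 106 CPM at 500 nM. The groups overlapped, and the log2 fold change of −0.00063 had a standard error of 0.10. The peak over the start ran from 152432815 to 152437093. It carried 77.7 and 80.8 CPM in DMSO, 82.0 and 84.8 CPM at 150 nM, and 69.7 and 75.9 CPM at 500 nM. Both 500 nM libraries lay below all DMSO and 150 nM libraries, but the log2 fold change of −0.12 did not pass the test (edgeR adjusted p = 0.719). Another abundant peak ran from 152341181 to 152343429. It held 41.4 and 36.5 CPM in DMSO, 37.0 and 26.8 CPM at 150 nM, and 43.0 and 38.1 CPM at 500 nM. At 500 nM against 150 nM its log2 fold change was 0.36 (edgeR adjusted p = 0.333), and 0.59 without 150 nM replicate 1. The other KMT2C peaks held 15.1 CPM or less in DMSO on average.

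SETD1B had the strongest H3K27ac of the 10 genes, over the same stretch as its broad H3K4me3. The lead peak, from 121797653 to 121805635, carried 209 and 217 CPM in DMSO, 197 and 221 CPM at 150 nM, and 224 and 226 CPM at 500 nM. Both 500 nM libraries were the highest, and the log2 fold change of 0.078 did not pass the test (edgeR adjusted p = 0.783). Per length, the DMSO level was 26.7 CPM per kb there, 25.9 at the ASH2L lead peak and 12.1 at that of KMT2A, the lowest of the 10.

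The SETD1A lead peak held 50.6 and 50.5 CPM in DMSO, 51.0 and 53.5 CPM at 150 nM, and 55.4 and 67.3 CPM at 500 nM. The 500 nM libraries were above the other 4 and apart from each other, and the log2 fold change of 0.28, the largest among the lead peaks, had an adjusted p of 0.353 with edgeR. The WDR5 lead peak held 38.4 and 49.1 CPM in DMSO and 52.7 and 51.0 CPM at 500 nM, with a log2 fold change of 0.24 (edgeR adjusted p = 0.485). The DMSO libraries of WDR5 differed from each other by more than the 500 nM libraries did from the higher of them. The remaining lead peaks had log2 fold changes from −0.044 at KMT2A to 0.17 at ASH2L. Those of KMT2B and CXXC1 lay at neighbours' ends, over IGFLR1 and U2AF1L4 and over MBD1. The H3K27ac peak over the CXXC1 start held 29.7 and 29.9 CPM in DMSO and 27.9 and 28.7 CPM at 500 nM. At 150 nM it held 22.9 and 28.8 CPM, and its log2 fold change at 500 nM was −0.073 (edgeR adjusted p = 0.908). The H3K27ac peaks on either side of the KMT2B start had log2 fold changes of 0.15 and 0.20 (edgeR adjusted p = 0.814 and 0.766).

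Reads were also summed over all peaks of each gene. For H3K4me3 at 500 nM against DMSO, 4 of 10 genes were lower and 0 higher, where 22% of 20215 tested genes were lower and 41.8% were called in either direction. No share for genes of like abundance is given here. Among single peaks the direction depended on abundance, with 34.1% lower and 4.83% higher in the top abundance class. The log2 fold changes were −0.19 for KMT2C, −0.13 for RBBP5, −0.12 for CXXC1 and −0.099 for SETD1B, with edgeR adjusted p-values of 9.75e-06, 0.0237, 0.00252 and 0.00950. Of the CXXC1 sum in DMSO (206 CPM on average), 101 CPM came from the peak beyond the gene and over MBD1. The peak over the CXXC1 start was not called on its own (edgeR adjusted p = 0.0810). The SETD1B sum includes the called peak that also lies over RHOF. KMT2D, with its uncalled peak at the other end included (log2 fold change 0.075), did not pass (−0.050, edgeR adjusted p = 0.212). The count was 2 with total-count scaling, 1 with loess offsets and 1 with DESeq2, and 2 without DMSO replicate 2 or without 500 nM replicate 1. For H3K27ac, 0 of 10 genes were called with edgeR and 0 with DESeq2, where edgeR called 1.57% of all tested genes. With edgeR, 2 of the 10 had an unadjusted p under 0.05, as did 3055 of all 19790 tested genes. The largest H3K27ac value was that of KMT2D, 0.31 (standard error 0.095, edgeR adjusted p = 0.0973).

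Among the genes of partner subunits, more peaks fell than rose. The list held 11 genes, chosen, like the other lists, with earlier results of these data known. Of their 14 tested H3K4me3 peaks, 5 were lower at 500 nM, 1 was higher and 8 did not pass the test, against 18.7% lower and 20.7% higher over all tested peaks. Of the 14, 6 were in the top abundance class, where 34.1% were lower and 4.83% higher. Their median log2 fold change was −0.061. The largest falls were at BOD1L1, a partner of SETD1A (−0.29, edgeR adjusted p = 1.24e-06), at KDM6A, the H3K27 demethylase of the KMT2C and KMT2D complexes (−0.22), and at the end of DPY30, the remaining core subunit, that MEMO1 overlaps (−0.20). The other DPY30 peak, at the opposite end of the gene, had a log2 fold change of −0.061 and did not pass the test (edgeR adjusted p = 0.409). BOD1L1 went from 83.4 and 84.5 CPM in DMSO to 69.9 and 67.2 CPM at 500 nM. The higher peak lay at the end of MEN1, which encodes menin, away from both of its listed starts and over MAP4K2 (0.13, edgeR adjusted p = 0.0447). The MEN1 peak that covers both starts did not pass the test (0.087, edgeR adjusted p = 0.245). Of 33 tested H3K27ac peaks at these genes edgeR called 0 and 4 had an unadjusted p under 0.05, against 11.5% of all tested peaks.

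Among 6 H3K4 demethylase genes, 2 of 8 tested H3K4me3 peaks were higher at 500 nM, 1 was lower and 5 did not pass the test. The 3 called of 8 are near the 39.4% called over all tested peaks. Both higher peaks were inside KDM5B, which encodes a Jumonji-family enzyme that removes H3K4me3, or within 2 kb of it. Its lead peak lay outside the gene, 1.86 kb beyond the end with its start, over PCAT6 and LOC124904583. That peak carried 47.1 and 46.9 CPM in DMSO and 52.9 CPM in both 500 nM libraries (log2 fold change 0.17, edgeR adjusted p = 0.0179). The peak over the KDM5B start had a log2 fold change of 0.18 (edgeR adjusted p = 0.0312). The lower peak was at KDM5C, from 85.9 and 84.3 CPM to 77.8 and 74.1 CPM (−0.16, edgeR adjusted p = 0.00441), and is shared with IQSEC2. Of 9 tested H3K27ac peaks at these genes edgeR called 0 and 1 had an unadjusted p under 0.05, near the 11.5% of all tested peaks.

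Across all tested genes, those whose summed H3K4me3 followed that of KMT2C most closely over the 6 libraries were RAD21, RAD21-AS1 and MIR3610, which share the same peaks. Their distance from KMT2C, computed as the Euclidean distance between log2 levels with 0.1 CPM added, each centred on the gene's own mean, was 0.029, against a median of 0.233 over 20212 genes. Their log2 fold change at 500 nM was −0.22. The likeness is a description over 6 libraries only.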

How the data were processed

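ChIP-seq of H3K4me3 and H3K27ac was analysed in 12 OCI-Ly1 libraries, grouped by the sample titles. The deposited tables hold raw read counts per consensus peak, with no normalization. Per the file headers, the authors counted with featureCounts 2.0.1 without regard to strand, required a fraction of 0.2 of a read inside a peak and let a read count in several peaks, so the same read can stand in neighbouring peaks. The headers set the option for paired reads while the labels' protocols give single-end reads. Per the submitters' processing notes, Trim Galore 0.6.7, BWA 0.7.17-r1188, Picard 2.27.4, MACS2 2.2.7.1, deepTools 3.5.1, edgeR 3.42.4 and the build GRCh38 were used; how the consensus peaks were made is not given in the sources used here. Coordinates are the deposited ones with 1 added to the start. Gene positions and promoters came from RefSeq tables of GRCh38.p14.

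The test was that of edgeR 4.0.16 (R 4.3.3), with all 6 libraries of a mark in one fit by treatment group, filterByExpr, TMM, glmQLFit and glmQLFTest. Benjamini-Hochberg adjustment ran over all tested peaks, or over all genes for counts summed per gene, at a threshold of 0.05. Standard errors were derived from the F statistic. TMM sets the bulk of peaks to no change, so a change of all peaks alike is not measured. The procedure was tested on simulated data with changes much larger than the 6 falls called here, so that test does not bear on changes of their size. No molecular identifiers were used, so reads are not independent molecules.

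All 10 genes are named. Peaks other than lead peaks are named where they were called and had the 3 largest changes of their mark, and other peaks described were chosen for their place in the gene or after their values were seen. From each list of other pathway genes, the called lead peaks with the 3 largest changes are named. For KMT2C, the gene with the largest change of summed H3K4me3, the 3 genes of nearest pattern are named. The members, the lists and the tests were chosen with earlier results of these data known. Alternatives were other scalings (median of ratios, total count, loess offsets on abundance), other filters, DESeq2 1.42.0, the 4 libraries of a comparison alone, each library left out, a replicate block, a window of 0 kb and, for H3K27ac, a term for the split of libraries. Same-numbered libraries deviated together with correlations of 0.0047 to 0.049 for H3K4me3 and 0.0026 to 0.13 for H3K27ac, so the numbers were not taken to pair them.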

Additional observations from a re-analysis of the deposited data

How the results depend on the processing

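With 2 libraries per group, the precision of single H3K27ac peaks is low, and changes of all peaks alike are not measured. The replicate block left the H3K4me3 counts at 6, 0 and 7 of 20 peaks and 4 of 10 genes, and no sample pairing is given by the labels. Under the block, H3K27ac gave 1 called peak (KMT2D, shared with PRKAG1; edgeR adjusted p = 0.0338 against DMSO) in each 500 nM comparison and 1 gene, KMT2D. The split term gave 1 and 1 peaks and 2 genes, KMT2D and WDR5, and the 4 libraries alone 1 peak. Leaving out 1 library gave 0 to 1 H3K27ac peaks against DMSO, 0 to 2 against 150 nM and 0 to 1 genes against DMSO. Against 150 nM, without 150 nM replicate 2, the summed H3K27ac of KMT2A, KMT2D and SETD1B was called higher (edgeR adjusted p = 0.0495, 0.00416 and 0.0374). The calls against DMSO came without 150 nM replicate 1 or 2. Of the 6 H3K4me3 falls, 2 were called with loess offsets and 1 with DESeq2 (KMT2C), and 2 to 6 with 1 library left out, the 2 without 500 nM replicate 1, where 2 other peaks were called higher. Counting both directions, 4 to 6 peaks were called against DMSO with 1 library left out. Over all tested H3K4me3 peaks, the share called against DMSO was 39.4% with edgeR and TMM, 33.7% with loess offsets and 16.1% with DESeq2. Of the 7 against 150 nM, DESeq2 called 3. The H3K4me3 gene count of 4 became 2 with total-count scaling, 1 with loess offsets, 1 with DESeq2 and 2 to 4 with 1 library left out. A window of 0 kb left 5, 0 and 6 H3K4me3 peaks called. The KMT2C fall held in every alternative, from −0.14 to −0.22. Of 290 lead-peak values under alternatives, 247 kept direction and side of the threshold, 14 lost the call, 1 gained it and 28 changed sign. The cause was not tested. With 1 library left out, H3K4me3 values that changed sign ran from −0.054 to 0.024 for KMT2A and −0.029 to 0.020 for ASH2L, and H3K27ac values from −0.12 to 0.031 for KMT2A, −0.12 to 0.17 for KMT2B, −0.034 to 0.039 for KMT2C and −0.071 to 0.17 for RBBP5. For H3K4me3, KMT2A became 0.025 with total-count scaling, 0.046 with loess offsets and 0.014 under the stricter filter (mean count 50 or more), where KMT2B became 0.013, 0.039 and 0.0011. SETD1B became 0.020 with loess offsets. ASH2L became −0.0030 without a filter, −0.00064 with DESeq2 and −0.00098 with the 4 libraries alone. For H3K27ac, KMT2A became 0.11 and RBBP5 −0.033 with the split term, and KMT2C 0.0011 with DESeq2.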
